A study of Mus musculus with 40 samples.

Results

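The 10 genes described here were grouped as markers of alternative macrophage activation: Il4ra, Il10ra, Mrc1, Msr1, Clec10a, Mgl2, Chil3, Retnla, Pdcd1lg2 and Tgm2. They were chosen by name from the 54513 rows of each deposited expression table, and all 10 were found in all 3 tables. The tables hold RNA-seq of CD11b+ cells sorted by flow cytometry from glioma-bearing hemispheres or from naïve mouse brain. CD11b is the integrin chain encoded by Itgam, so the sort takes microglia together with infiltrating monocytes, macrophages, neutrophils and some dendritic and NK cells. Of 40 samples in the series, 35 have a column in the tables and 5 are not analysed here.

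In the first experiment, C57BL/6 mice carried GL261, a murine glioma line, and were sampled at 21 days post-implantation (DPI). The groups were vehicle, 7aaRGD and 7aaRAE with 3 samples each, beside 3 samples from naïve C57BL/6 mice without a tumor, and each sample pooled 2 animals. In the second experiment, sampled at 28 DPI, there were 4 samples with vehicle, 4 with 7aaRGD, 3 with the anti-PD-1 antibody and 3 with both agents, each from 1 animal. The labels call the 28 DPI animals nude mice while the methods of the study give C57BL/6 mice with GL261. The study also says that joint effects of 7aaRGD and checkpoint inhibitors were not testable in immunodeficient animals. The tumor line is taken from the study, and the strain was not tested here. In the last experiment, athymic nude mice, which lack mature T cells, carried U87-MG, a human glioma line, and received vehicle, 7aaRGD or 7aaRAE, with 3 samples in each group at 21 DPI and, per the methods of the study, 2 animals per sample. All mice were males of 10 to 12 weeks. Peptides at 2 mg per ml, or water as vehicle, flowed into the tumor from an osmotic pump. Anti-PD-1 was injected on days 8, 10, 12 and 14 (10 mg per kg), and control groups received IgG. 7aaRGD carries the integrin-binding RGD motif, and the control peptide 7aaRAE carries RAE in its place.

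Macrophages exposed to IL-4 or IL-13 signal through the IL-4 receptor alpha chain to the transcription factor STAT6, which switches on a set of genes long used as markers of alternative (M2-like) activation. The set holds lectins and scavenger receptors of the cell surface, secreted lectin-like proteins, a ligand of PD-1 and a protein-crosslinking enzyme. Several of the 10 genes are not specific to that state: Mrc1 also marks macrophages at the borders of the brain, Mgl2 and Clec10a also mark dendritic cells, and Tgm2 also responds to interferons. The receptor chains Il4ra and Il10ra were also present in cells of naïve brain, at 58.6 and 222 RPKM on average.

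All levels are given in RPKM, read numbers scaled by gene length and library size, so they can be compared between genes of different length within a table. Fold changes are differences in log2(RPKM + 1), which understate the change of low genes. They were tested with limma over all protein-coding genes that averaged 1 RPKM or more, p-values were adjusted over all of them by the Benjamini-Hochberg method, and a gene is called at an adjusted p under 0.05. Read totals were not given, so the depth behind the levels is unknown. Between 9327 and 9820 protein-coding genes reached 1 RPKM in a sample. Itgam lay between 51.2 and 195 RPKM, and the T-cell gene Cd3e reached at most 0.953 RPKM. Small values below 0 occur because the deposited values had been altered after normalization, and in the GL261 table of 21 DPI and the table of 28 DPI a component of the differences between replicates is missing, so replicates can look more alike than they were. Of the vehicle samples at 21 DPI in GL261, sample 3 held the lowest level of Chil3, Mrc1, Retnla, Pdcd1lg2, Mgl2 and Clec10a, and results that rest on it are also given without it. That sample was picked by these levels and not by a separate measure of quality. For Mrc1, Retnla and Mgl2 the vehicle levels fell from sample 1 to sample 3, while 7aaRGD and naïve levels rose in that order. Among 7aaRAE samples only Retnla rose so, and Chil3, Pdcd1lg2 and Clec10a did not keep this order in every group. Whether the missing component plays a part in this order was not tested.

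Promoter sequences from RefSeq (GRCm38.p6) were matched to 6 of the 10 genes: Chil3, Mrc1, Retnla, Il4ra, Pdcd1lg2 and Mgl2. The genes without an entry were Msr1, Clec10a, Tgm2 and Il10ra. The 250 bases before each start were searched for TTCNNNNGAA, the spacing that STAT6 is known to prefer, and for TTCNNNGAA, the spacing preferred by most other STAT proteins. Both patterns read the same on either strand, and neither can overlap the other in these promoters, since each promoter held at most 1 of them. TTCNNNNGAA was found in Retnla and Pdcd1lg2, 2 of the 6, where 5.85% of 32851 RefSeq promoters hold it, and TTCNNNGAA in Chil3, 1 of the 6, where 7.02% hold it. The promoters with a match are shown from 200 to 61 bases before the start, 5′ to 3′ on the strand of the gene, with the match in capitals. The stretches lie at chr16:48842409-48842548 (+ strand) for Retnla, chr19:29410719-29410858 (+ strand) for Pdcd1lg2 and chr3:106167625-106167764 (- strand) for Chil3.
Retnla: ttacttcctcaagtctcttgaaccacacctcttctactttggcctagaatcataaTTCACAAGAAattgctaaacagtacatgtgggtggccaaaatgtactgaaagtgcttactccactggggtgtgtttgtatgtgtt
Pdcd1lg2: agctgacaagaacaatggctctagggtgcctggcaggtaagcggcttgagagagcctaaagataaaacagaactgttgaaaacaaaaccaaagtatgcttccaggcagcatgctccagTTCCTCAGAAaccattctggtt
Chil3: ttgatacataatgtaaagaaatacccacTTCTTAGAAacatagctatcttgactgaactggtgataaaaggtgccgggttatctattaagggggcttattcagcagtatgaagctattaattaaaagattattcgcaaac
The matches begin 145, 82 and 172 bases before the start of Retnla, Pdcd1lg2 and Chil3. They describe the letters of these windows and not bound sites, and no factor binding was measured.

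The first comparison set CD11b+ cells of GL261 gliomas (vehicle) against those of naïve brain at 21 DPI. In glioma 6 of the markers were higher, with the largest differences in Chil3, Pdcd1lg2, Msr1 and Tgm2, and Il10ra was lower. By limma 6 of 10 were called higher, where 34.6% of 9728 tested genes were, and 1 was called lower, where 48.2% were. Together 7 of 10 were called, against 82.9% of all tested genes, so the share was not above the background. The median difference of the 10 genes was 1.43 on the log2 scale, against -0.14 over all tested genes. In a bulk sample, fewer cells of a type and less RNA per cell cannot be told apart. All 10 of 10 microglia markers, among them Tmem119 and P2ry12, were called lower, and their summed level was 1438 to 2107 RPKM in vehicle and 17443 to 18040 RPKM in naïve samples. All 6 of 6 monocyte markers, among them Ly6c2 and Ccr2, were called higher, with sums of 1092 to 1710 and 12.8 to 13.5 RPKM. Of 4 tested dendritic cell markers 3 were called higher (7 genes summed to 69.5 to 79.4 RPKM in vehicle and 13.9 to 16.5 RPKM in naïve samples), and of 8 neutrophil markers 1 was called higher and 6 lower (136 to 272 and 421 to 544 RPKM). The part of these shifts in the results for the 10 genes was not tested.

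Of the receptors, Il4ra (chr7:125552120-125579474, + strand, mm10) encodes the chain through which IL-4 and IL-13 signal. Its level was 61.1, 59.2 and 55.5 RPKM in naïve samples 1 to 3 and 118, 119 and 126 RPKM in vehicle samples 1 to 3. The groups did not overlap, and the difference was 1.03 ± 0.06 on the log2 scale (SE, adjusted p = 9.29e-07, limma). Il10ra (chr9:45253837-45269149, - strand) encodes the ligand-binding chain of the IL-10 receptor and was the member with the highest level in naïve cells. It was 208, 230 and 227 RPKM in naïve samples and 172, 189 and 202 RPKM in vehicle samples. All vehicle samples were below all naïve samples, with a difference of -0.24 ± 0.08 on the log2 scale (SE, adjusted p = 0.0174, limma). With median-of-ratios scaling, which moved the median of all genes from -0.14 to 0.01, it was -0.07 with an adjusted p of 0.43, and without naïve sample 2 or 3 the adjusted p was 0.0688 or 0.0615.

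Among the lectins and scavenger receptors, Msr1 (chr8:39581685-39642673, - strand), the class A scavenger receptor, was near 1 RPKM in naïve cells, with 1.15, 1.41 and 1.41 RPKM. It reached 51.0, 36.1 and 63.0 RPKM in vehicle samples, higher by 4.42 ± 0.18 on the log2 scale (SE, adjusted p = 1.48e-07, limma). Clec10a (chr11:70156197-70170834, + strand), a galactose-type lectin, was 2.45, 3.74 and 3.22 RPKM in naïve and 19.1, 12.6 and 10.3 RPKM in vehicle samples. Every vehicle sample lay above every naïve sample, and the difference was 1.83 ± 0.21 (log2, SE, adjusted p = 5.86e-05, limma). Its neighbor and near copy Mgl2 (chr11:70130329-70137550, + strand) was 10.3, 12.2 and 13 RPKM in naïve and 40.3, 31.0 and 7.79 RPKM in vehicle samples. Vehicle samples 1 and 2 were above the naïve range and sample 3 was below it. Mrc1 (chr2:14229392-14332057, + strand), the mannose receptor CD206, had the same order, with 22.7, 32.0 and 33.3 RPKM in naïve and 99.5, 65.9 and 12.5 RPKM in vehicle samples. Neither gene was called with all samples (Mgl2 0.83, adjusted p = 0.158, and Mrc1 0.59, adjusted p = 0.422, log2 and limma). Without vehicle sample 3 both were, at 1.51 (adjusted p = 1.85e-05, limma) and 1.45 (adjusted p = 0.000338). Of the 50-base words in the longest transcript, 16.5% for Mgl2 occur in other genes, mainly Clec10a, and 10.6% for Clec10a occur in Mgl2, and reads there cannot be assigned with certainty.

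Of the secreted proteins, Chil3 (chr3:106147554-106167564, - strand), the chitinase-like protein Ym1, had the widest range in RPKM among vehicle samples. It was 6.99, 10.9 and 12.1 RPKM in naïve and 710, 943 and 187 RPKM in vehicle samples, or 613 ± 387 (SD, n = 3). The groups were far apart, with a difference of 5.54 ± 0.54 on the log2 scale (SE, adjusted p = 2.4e-05, limma). In the longest Chil3 transcript 29.4% of 50-base words occur in other genes, among them Chil4, which was listed at or near 0 in every sample. Retnla (chr16:48842551-48844461, + strand), the resistin-like protein Fizz1, stayed low, with 2.31, 2.42 and 2.99 RPKM in naïve and 4.88, 1.78 and 0.12 RPKM in vehicle samples. Vehicle sample 1 was above and samples 2 and 3 were below the naïve range, and the difference of -0.43 was not called (log2, adjusted p = 0.443, limma). It was 0.18 without vehicle sample 3 and -1.01 without vehicle sample 1 (adjusted p = 0.0208, limma).

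Pdcd1lg2 (chr19:29410919-29471161, + strand), which encodes the PD-1 ligand PD-L2, was close to 0 in naïve samples, with 0.0384, 0.0256 and 0.00376 RPKM. In vehicle samples it was 51.7, 95.5 and 16.6 RPKM, higher by 5.45 ± 0.52 on the log2 scale (SE, adjusted p = 2.03e-05, limma). Vehicle sample 3 again held the lowest level, yet far above every naïve sample. The size of this difference depends on the pseudocount, since naïve levels are near 0: with a pseudocount of 0.1 it was 8.48, larger than that of Chil3 (5.67). Tgm2 (chr2:158116402-158146436, - strand), the protein-crosslinking enzyme transglutaminase 2, was 46.8, 43.4 and 41.7 RPKM in naïve and 449, 682 and 696 RPKM in vehicle samples. Here vehicle sample 3 was the highest of its group, and the difference was 3.74 ± 0.16 (log2, SE, adjusted p = 2.07e-07, limma).

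**Figure D1:**
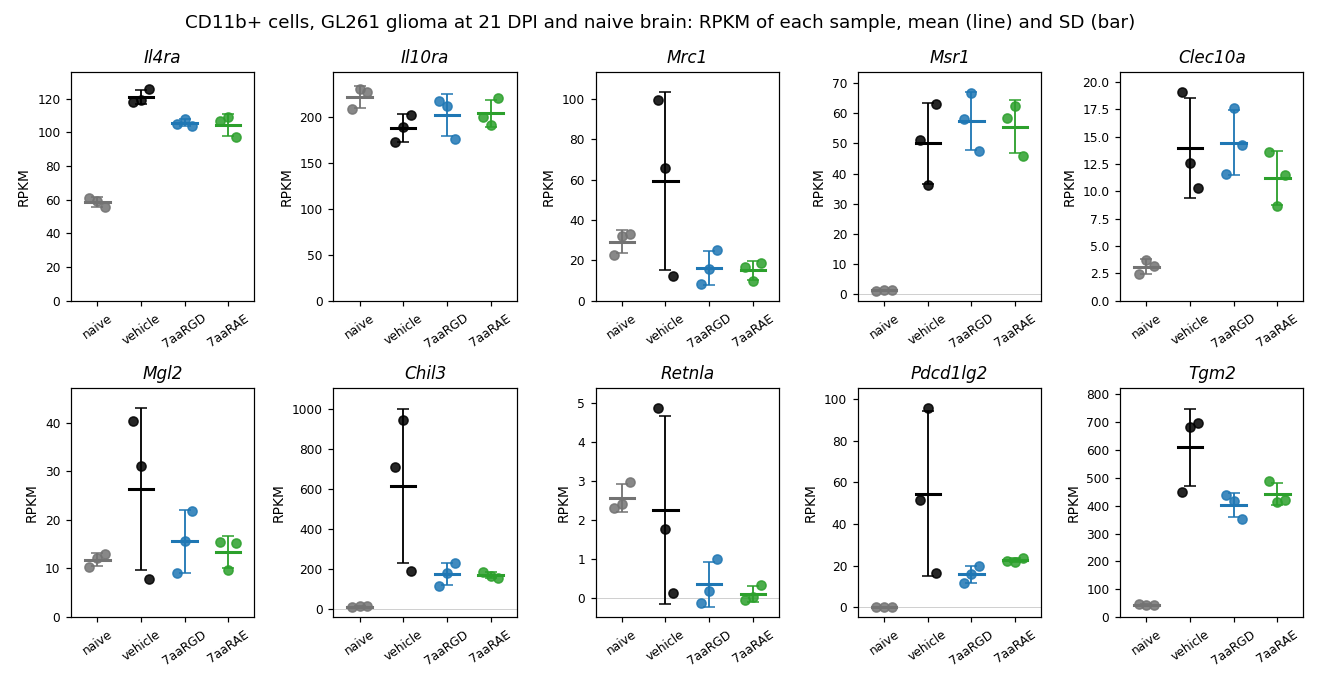
Level of each of the 10 genes in RPKM in every naïve, vehicle, 7aaRGD and 7aaRAE sample of the 21 DPI GL261 experiment, 1 panel per gene and 1 point per sample, with a line at the group mean and a bar for the SD. Chil3, Pdcd1lg2, Msr1 and Tgm2 sit near the bottom in naïve samples, and vehicle sample 3 falls away from the other vehicle samples in Chil3 (187 against 710 and 943 RPKM) and Mrc1 (12.5 against 99.5 and 65.9 RPKM) but not in Tgm2.

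The genes of the pathway around Il4ra moved in both directions. Over all tested genes 34.6% were called higher and 48.2% lower, together 82.9%. Of 7 tested IL-4/IL-13 receptor and signaling genes, 4 were called higher, led by Il2rg, the common gamma chain that pairs with Il4ra, with 4.69 on the log2 scale, and Jak2 with 2.4. The other 3 were called lower, among them Il13ra1, the partner chain for IL-13, by 0.43 and Stat6 by 0.2. The ligands were at the bottom of the scale throughout the series: Il4 reached at most 2.11 RPKM, Il13 0.301 RPKM and Il10 0.653 RPKM. In the IL-10 axis 6 of 7 tested genes were called higher and 1 lower, Il10rb, the partner chain of Il10ra, by 0.23. Of 14 other tested genes of alternative activation, 11 were called higher and 1 lower. The higher ones included Arg1, the arginine-hydrolysing enzyme, with 9.11, Socs1 with 4.32, and the chemokines Ccl22 and Ccl17 with 4.24 and 3.99. Arg1 was 0.11, 0.0372 and 0.077 RPKM in naïve and 845, 1224 and 201 RPKM in vehicle samples, so vehicle sample 3 was the lowest here as well.

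The next comparisons set each peptide against vehicle in GL261 at 21 DPI, and since both use the same 3 vehicle samples they are not independent. No member was called for 7aaRGD, 0 of 9 tested, against 0.148% of 9441 tested genes, and none for 7aaRAE, 0 of 9 against 0%. At an unadjusted p under 0.05, limma gave 5 of 9 members for 7aaRGD, where 1280 of all tested genes were, and 4 of 9 for 7aaRAE, where 601 were. Retnla fell under the level filter. The median difference of the 9 genes was -0.53 for 7aaRGD and -0.44 for 7aaRAE on the log2 scale, against 0.02 and 0 over all tested genes.

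Chil3 was 613 RPKM on average with vehicle. It was 114, 176 and 228 RPKM in 7aaRGD and 185, 165 and 153 RPKM in 7aaRAE samples, around or below the lowest vehicle sample (187 RPKM). Against vehicle these are differences of -1.58 ± 0.51 for 7aaRGD (SE, adjusted p = 0.257, limma) and -1.57 for 7aaRAE (adjusted p = 0.718). Mrc1 was 8.31, 15.6 and 25.1 RPKM with 7aaRGD and 16.7, 9.63 and 18.8 RPKM with 7aaRAE. The values of each peptide surround vehicle sample 3 (12.5 RPKM) and lie far under vehicle samples 1 and 2. Pdcd1lg2 was 11.5, 16.1 and 19.8 RPKM with 7aaRGD and 22.4, 21.6 and 23.5 RPKM with 7aaRAE, on either side of vehicle sample 3 (16.6 RPKM) for 7aaRGD and above it for 7aaRAE.

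Those 3 genes depended on vehicle sample 3. Without it, Chil3 was lower with 7aaRGD by 2.29 on the log2 scale (adjusted p = 0.014, limma), Mrc1 by 2.36 (adjusted p = 0.0363) and Pdcd1lg2 by 2.12 (adjusted p = 0.0178), so 3 of 9 were called, against 1.32% of tested genes. With 7aaRAE and without that sample only Chil3 was called, 1 of 9, against 0.0211% of tested genes, with -2.28 (adjusted p = 0.0431, limma). Mrc1 at -2.4 (adjusted p = 0.119, limma) and Pdcd1lg2 at -1.6 (adjusted p = 0.116) were not called with 7aaRAE, although the Mrc1 difference was of the size seen with 7aaRGD. Vehicle sample 3 was singled out by its low levels of these same genes, so leaving it out enlarges their differences by construction. The counts without it are no independent support for these differences.

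Il4ra and Tgm2 lay below vehicle in every 7aaRGD sample, though neither was called. Il4ra was 105, 108 and 104 RPKM with 7aaRGD and 107, 109 and 97.1 RPKM with 7aaRAE, all below the lowest vehicle sample (118 RPKM). Tgm2 was 437, 418 and 353 RPKM with 7aaRGD, below the lowest vehicle sample (449 RPKM), and 487, 415 and 422 RPKM with 7aaRAE, which overlapped vehicle. The differences against vehicle with 7aaRGD were -0.19 ± 0.06 for Il4ra (adjusted p = 0.27, limma) and -0.57 ± 0.16 for Tgm2 (adjusted p = 0.219). Groups without overlap were seen for 2 of 9 members with 7aaRGD (Il4ra and Tgm2), against 17.6% of all tested genes, and for 2 of 9 with 7aaRAE (Chil3 and Il4ra), against 12.6%.

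The other members overlapped with vehicle. Msr1 was 47.5 to 66.6 RPKM with 7aaRGD and 45.7 to 62.4 RPKM with 7aaRAE, Clec10a 11.6 to 17.6 and 8.65 to 13.6 RPKM, Mgl2 9.09 to 21.9 and 9.64 to 15.4 RPKM, and Il10ra 176 to 217 and 191 to 220 RPKM. Retnla was -0.143, 0.185 and 0.996 RPKM with 7aaRGD and -0.0509, 0.0259 and 0.331 RPKM with 7aaRAE, too low for a test. Arg1, the other gene with a low vehicle sample 3, was 95.6 to 201 RPKM with 7aaRGD and 204 to 265 RPKM with 7aaRAE. Border-associated macrophage markers, 8 genes that include Lyve1 and Cd163, summed to 189, 119 and 128 RPKM in vehicle samples 1 to 3, and their part in the values of vehicle sample 3 was not tested. Microglia markers were not called with either peptide by limma (0 of 10), but 10 of 10 had a value above vehicle with each, and the median difference was 0.48 for 7aaRGD and 0.26 for 7aaRAE on the log2 scale. Their sums were 2182 to 2900 RPKM with 7aaRGD, above all vehicle samples (1438 to 2107 RPKM), and 1877 to 2399 RPKM with 7aaRAE. The part of this in the member values was not tested. In the IL-4/IL-13, IL-10, other alternative and classical activation lists, 0 genes were called by limma with either peptide.

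The peptides differ in the RGD motif, and 9 members were compared between them. None was called, 0 of 9 against 0% of tested genes, and none had an unadjusted p under 0.05, where 521 of 9441 tested genes did. The adjusted p-values lay between 0.992 and 0.998 (limma). The difference 7aaRGD minus 7aaRAE on the log2 scale was -0.01 for Chil3 with a 95% interval of -1.15 to 1.13, 0.04 for Mrc1 (-1.45 to 1.53), and -0.51 for Pdcd1lg2 (-1.62 to 0.59). Narrower intervals were found for Il4ra with 0.02 (-0.12 to 0.17), Il10ra with -0.02 (-0.24 to 0.21) and Tgm2 with -0.13 (-0.5 to 0.23). Only Pdcd1lg2 had groups without overlap, 1 of 9 members against 11.4% of tested genes, lower with 7aaRGD. These intervals allow differences between the peptides of more than 2-fold in Chil3, Mrc1 and Pdcd1lg2, and a p that misses the threshold does not show that the peptides act alike.

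**Figure D2:**
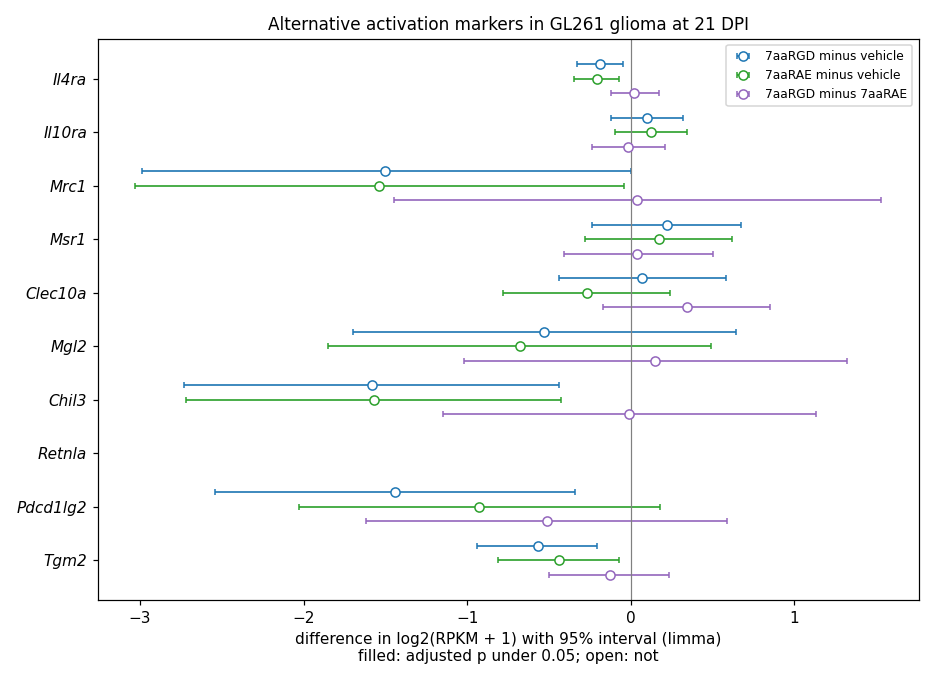
Difference on the log2(RPKM + 1) scale, with 95% intervals, for the 9 tested genes in GL261 at 21 DPI: each peptide minus vehicle and 7aaRGD minus 7aaRAE, with open points for genes not called. The points of Chil3, Mrc1 and Pdcd1lg2 lie between -0.93 and -1.58 against vehicle with wide intervals, while Il10ra and Msr1 lie near 0.

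The 28 DPI experiment asked how the peptide, anti-PD-1 and their combination compared with vehicle. With the combination 5 members rose (Pdcd1lg2, Tgm2, Mgl2, Clec10a and Il10ra) and 2 fell (Mrc1 and Il4ra), with anti-PD-1 alone 2 rose (Tgm2 and Pdcd1lg2), and with 7aaRGD alone none was called. The 3 comparisons share the 4 vehicle samples.

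With the combination, 7 of 9 tested members were called by limma, against 43.3% of 9737 tested genes. In the higher direction 5 of 9 were, against 17.5%, and in the lower direction 2 of 9, against 25.8%. With anti-PD-1, 2 of 9 were called, against 23.1%, both higher, where 10.8% of tested genes were. With 7aaRGD, 0 of 9 were called, against 0.647%, and 0 of 9 had an unadjusted p under 0.05, where 1421 of all tested genes did. The median difference of the 9 genes was 0.42 with the combination, 0.59 with anti-PD-1 and 0.03 with 7aaRGD, against -0.05, 0 and 0.01 over all tested genes.

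Cell type markers moved with these results. Monocyte markers were called higher in 5 of 6 genes with anti-PD-1 and in 5 of 6 with the combination, and their summed level was 71.7 to 144 RPKM in vehicle, 76.8 to 174 in 7aaRGD, 410 to 604 in anti-PD-1 and 666 to 905 RPKM in combination samples. The 7 dendritic cell markers summed to 1.71 to 4.68, 2.41 to 4.21, 4.46 to 20.3 and 13.9 to 18.1 RPKM in the same order, with Xcr1 at most 0.167 RPKM. Of the 3 that were tested, 2 (Cd209a and Ccr7) were called higher with anti-PD-1, and the same 2 with the combination. Of 10 microglia markers 1 (Cx3cr1) was called higher with 7aaRGD, 2 with anti-PD-1 and 6 with the combination. Their sums were 1660 to 2364 RPKM in vehicle, 1903 to 3442 in 7aaRGD, 1904 to 2757 in anti-PD-1 and 2549 to 2725 RPKM in combination samples. None of the border-associated macrophage markers was called with any treatment against vehicle, each with 0 of 6 tested by limma. Their sums were 114 to 134 RPKM in vehicle, 143 to 191 in 7aaRGD, 145 to 190 in anti-PD-1 and 103 to 189 RPKM in combination samples. All 7aaRGD and anti-PD-1 sums were thus above all vehicle sums. The part of these shifts in the results for the members was not tested.

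Pdcd1lg2 was 2.63, 6.95, 4.75 and 6.2 RPKM in vehicle samples 1 to 4 and 5.84, 2.3, 1.67 and 2.62 RPKM in 7aaRGD samples. It was 5.23, 33.0 and 34.1 RPKM with anti-PD-1 and 51.9, 27.2 and 17.8 RPKM with the combination. Every combination sample was above every vehicle and 7aaRGD sample, whereas anti-PD-1 sample 1 lay within the vehicle range. The difference from vehicle was 2.37 ± 0.55 with the combination (log2, SE, adjusted p = 0.00383, limma) and 1.73 ± 0.55 with anti-PD-1 (adjusted p = 0.0377). The anti-PD-1 call was not stable: it had an adjusted p of 0.0718 without the level filter, 0.0677 when only the groups compared were fitted, and 0.0521 with 1 residual degree of freedom less. It was also lost when vehicle sample 1, 3 or 4 or anti-PD-1 sample 2 or 3 was left out, with differences of 1.31 to 1.83 and adjusted p-values of 0.0546 to 0.164 (limma).

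Tgm2 separated the antibody groups from the rest. It was 101, 106, 147 and 90.2 RPKM with vehicle and 116, 138, 86.4 and 177 RPKM with 7aaRGD. It was 384, 321 and 373 RPKM with anti-PD-1 and 494, 315 and 277 RPKM with the combination. All 6 samples with the antibody were above all 8 samples without it, with differences from vehicle of 1.71 ± 0.24 for anti-PD-1 (log2, SE, adjusted p = 0.000469, limma) and 1.67 ± 0.24 for the combination (adjusted p = 0.000121).

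The galactose-type lectins were highest with the combination. Mgl2 was 1.96, 3.72, 5.52 and 4.63 RPKM with vehicle, 6.86, 1.54, 1.67 and 3.97 with 7aaRGD, 3.88, 10.9 and 8.36 with anti-PD-1 and 14.6, 13.2 and 8.1 RPKM with the combination. Clec10a was 2.96, 1.82, 4.52 and 2.52 RPKM with vehicle, 3.14, 2.13, 2.6 and 2.69 with 7aaRGD, 7.27, 4.08 and 3.59 with anti-PD-1 and 7.5, 6.06 and 6.44 RPKM with the combination. For both genes the combination samples were above all vehicle and 7aaRGD samples, while anti-PD-1 samples overlapped with vehicle. Against vehicle the combination raised Mgl2 by 1.41 ± 0.41 (log2, SE, adjusted p = 0.0132, limma) and Clec10a by 0.99 ± 0.22 (adjusted p = 0.00246). With anti-PD-1 the differences were 0.78 (adjusted p = 0.185, limma) and 0.59 (adjusted p = 0.0639). Without vehicle sample 3 or anti-PD-1 sample 3, Clec10a was called with anti-PD-1, at 0.77 (adjusted p = 0.0148, limma) and 0.76 (adjusted p = 0.0393).

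Mrc1, the mannose receptor, went the other way. It was 73.9, 98.9, 77.7 and 113 RPKM with vehicle, 161, 93.6, 70.4 and 66.3 with 7aaRGD, 21.8, 63.2 and 76.3 with anti-PD-1 and 35.1, 53.6 and 24.8 RPKM with the combination. All combination samples were below all vehicle and 7aaRGD samples. The difference from vehicle was -1.29 ± 0.40 with the combination (log2, SE, adjusted p = 0.019, limma) and -0.9 ± 0.40 with anti-PD-1 (adjusted p = 0.12). Without combination sample 1 or 3 the combination gave -1.27 (adjusted p = 0.0548, limma) and -1.03 (adjusted p = 0.0907). Without combination sample 1, 4 of 9 members remained past the threshold against vehicle, where 34.5% of tested genes were, and Mgl2 was at 1.26 (adjusted p = 0.057, limma).

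The receptors changed by less. Il10ra was 128, 137, 142 and 119 RPKM with vehicle, 117, 142, 144 and 135 with 7aaRGD, 160, 136 and 150 with anti-PD-1 and 189, 160 and 179 RPKM with the combination. The combination samples were above all vehicle samples, by 0.42 ± 0.09 (log2, SE, adjusted p = 0.00274, limma). Il4ra was 122, 118, 131 and 130 RPKM with vehicle, 131, 167, 118 and 154 with 7aaRGD, 125, 115 and 119 with anti-PD-1 and 104, 110 and 97.4 RPKM with the combination. The combination samples were below all others of the experiment, with a difference from vehicle of -0.27 ± 0.10 (log2, SE, adjusted p = 0.0432, limma). This call was lost without the level filter (adjusted p = 0.0607), with median-of-ratios scaling (-0.2, adjusted p = 0.0728) and with 1 residual degree of freedom less (adjusted p = 0.0587). It was also lost without vehicle sample 1, 3 or 4 or combination sample 1 or 3, with differences of -0.28 to -0.23 and adjusted p-values of 0.0602 to 0.146 (limma).

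Chil3 and Msr1 were called in no comparison of this experiment, and Retnla was under the level filter. Chil3 was 93.9, 205, 190 and 234 RPKM with vehicle, 745, 74.9, 126 and 338 with 7aaRGD, 82.8, 654 and 331 with anti-PD-1 and 163, 70.1 and 38.3 RPKM with the combination. The 7aaRGD and anti-PD-1 samples each ran from under to far over the vehicle range, and the difference of the combination from vehicle was -1.16 ± 0.79 (log2, SE, adjusted p = 0.249, limma). Retnla reached its highest levels of 3.54 RPKM in anti-PD-1 sample 3 and 2.01 RPKM in 7aaRGD sample 1, with the others between -0.053 and 1.01 RPKM. Msr1 was 51.3 to 71.4 RPKM with vehicle, 48.4 to 77.2 with 7aaRGD, 55.5 to 74.1 with anti-PD-1 and 49.7 to 72.7 RPKM with the combination, and these ranges overlapped almost in full. For 7aaRGD against vehicle the 95% interval was -1.2 to 1.94 for Chil3, -0.76 to 0.83 for Mrc1, -1.71 to 0.49 for Pdcd1lg2 and -0.15 to 0.22 for Il10ra on the log2 scale.

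**Figure D3:**
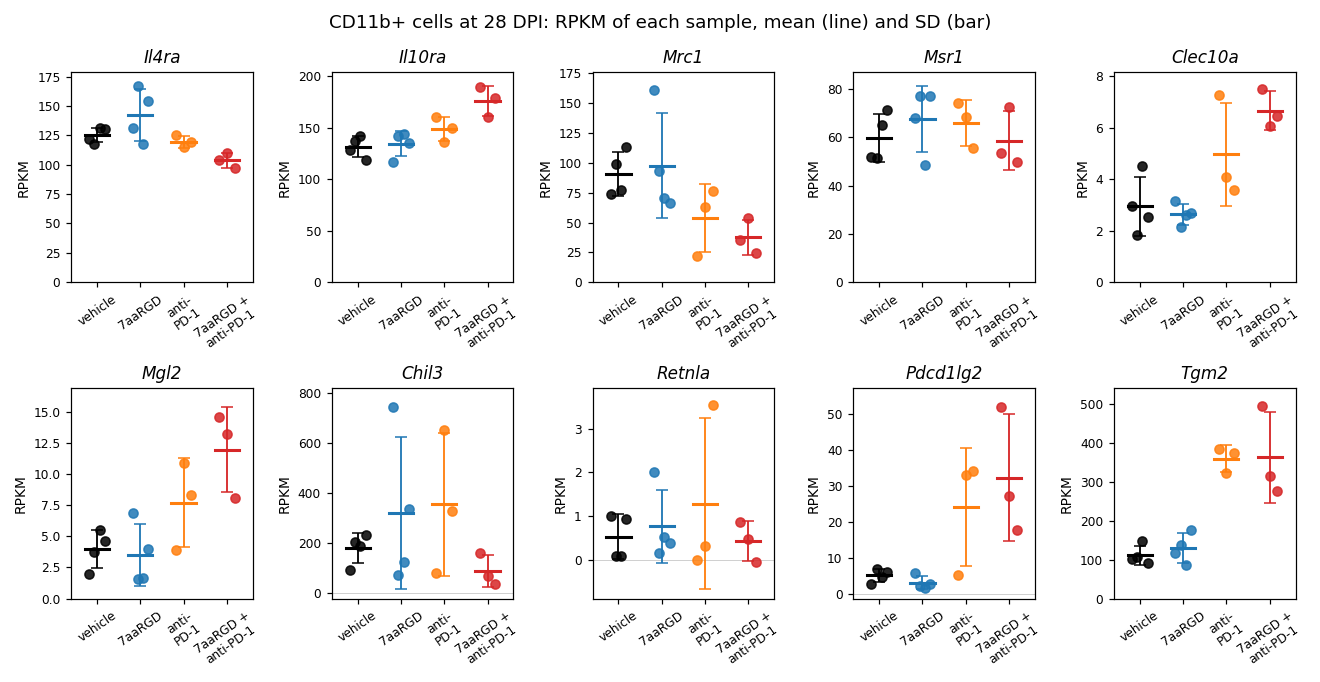
Level of each of the 10 genes in RPKM in every vehicle, 7aaRGD, anti-PD-1 and combination sample at 28 DPI, 1 panel per gene and 1 point per sample, with a line at the group mean and a bar for the SD. Tgm2 splits all samples with the antibody (277 to 494 RPKM) from those without (86.4 to 177 RPKM), while Chil3 spreads widely within each group.

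Set against the single agents, the combination differed from 7aaRGD in 7 members, while none passed the test against anti-PD-1. Against 7aaRGD, 7 of 9 members were called by limma, where 36.6% of tested genes were. The higher members were Pdcd1lg2 with 2.98 ± 0.55 (log2, SE, adjusted p = 0.00126), Mgl2 with 1.65 ± 0.41 (adjusted p = 0.00725), Tgm2 with 1.48 ± 0.24 (adjusted p = 0.000501), Clec10a with 1.08 ± 0.22 (adjusted p = 0.00205) and Il10ra with 0.38 ± 0.09 (adjusted p = 0.00612). The lower were Il4ra with -0.44 ± 0.10 (adjusted p = 0.00429, limma) and Mrc1 with -1.32 ± 0.40 (adjusted p = 0.02). The Mrc1 call was lost without 7aaRGD sample 1 (-1.05, adjusted p = 0.0546), combination sample 1 (-1.3, adjusted p = 0.0595) or combination sample 3 (-1.06, adjusted p = 0.0937). This comparison shares its combination samples with the one against vehicle.

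Against anti-PD-1, 0 of 9 members were called by limma, where 0.0411% of tested genes were, and 1 of 9 had an unadjusted p under 0.05, where 1461 of all tested genes did. That member was Il10ra, with a difference of 0.23 (log2, adjusted p = 0.282, limma). Chil3 had the largest difference, -1.77 ± 0.84 (log2, SE, adjusted p = 0.344, limma), with 1 combination sample inside the anti-PD-1 range of 82.8 to 654 RPKM. The interaction, which asks whether the combination departed from the sum of the single agents on the log2 scale, was called in 0 of 9 members by limma, against 0% of tested genes, and 1 of 9 had an unadjusted p under 0.05, where 794 of all tested genes did. That member was Il4ra, with -0.38 and a 95% interval of -0.69 to -0.08 (adjusted p = 0.588, limma). More members were called with the combination than with anti-PD-1, but none of the differences between these treatments passed the test.

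**Figure D4:**
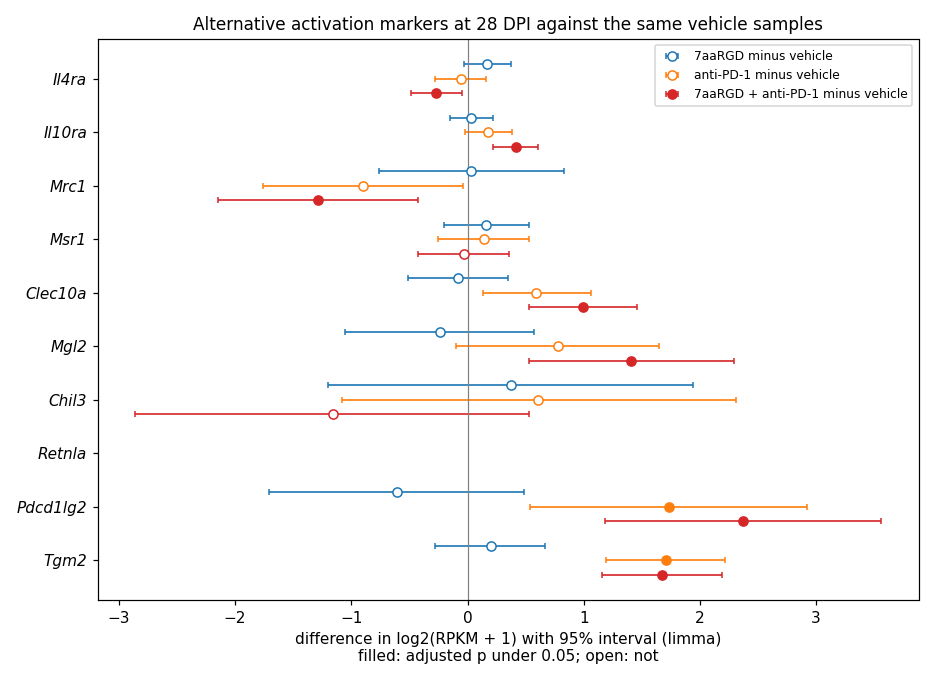
Difference on the log2(RPKM + 1) scale, with 95% intervals, for the 9 tested genes at 28 DPI, for each treatment minus vehicle, with filled points for called genes. Pdcd1lg2 (2.37) and Tgm2 (1.67) rise most with the combination, Mrc1 falls (-1.29), and the 7aaRGD intervals include 0 for all 9 genes.

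Genes of the pathway around the members were counted in the same way. With the combination 6 of 7 tested IL-4/IL-13 receptor and signaling genes were called higher and none lower, among them Il2rg with 1.18 on the log2 scale (adjusted p = 3.07e-05, limma), Jak3 with 0.65, Tyk2 with 0.48 and Jak2 with 0.37. In the IL-10 axis 1 of 7 was, Etv3 with 0.36, near the 17.5% of all tested genes called higher. The median differences of the IL-4/IL-13, IL-10 and other alternative activation lists were 0.37, 0.28 and 0.8, against -0.05 over all tested genes. Of 14 other alternative activation genes 6 were called higher: Ccl22 with 2.68 (adjusted p = 4.14e-05, limma), Cd209a, which is also a dendritic cell gene, with 2.45, Egr2 with 1.72 and Ccl17 with 1.66 had the largest differences. Arg1 was 199, 287, 148 and 424 RPKM with vehicle and 802, 377 and 228 RPKM with the combination, and its difference of 0.74 was not called (log2, adjusted p = 0.347, limma). With anti-PD-1 alone, 3 of 7, 1 of 7 and 4 of 14 genes of these lists were called higher and none lower, against 10.8% of tested genes. With 7aaRGD alone and between the combination and anti-PD-1, 0 genes of these lists were called by limma.

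In U87-MG gliomas of nude mice the peptides were compared with vehicle at 21 DPI. No member was called in any of the 3 comparisons, each with 0 of 8 tested, against 0% of 9665 tested genes for 7aaRGD, 0.0103% for 7aaRAE and 0% between the peptides. At an unadjusted p under 0.05, limma gave 0, 0 and 2 of 8 members, where 364, 746 and 327 of all tested genes were. Retnla and Pdcd1lg2 were under the level filter, with at most 0.218 and 0.23 RPKM in any sample. The table gives no replicate numbers in its column names, so samples are listed in column order.

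The 2 receptors were the highest members. Il4ra was 149, 154 and 137 RPKM with vehicle, 162, 122 and 125 with 7aaRGD and 188, 141 and 188 RPKM with 7aaRAE, and Il10ra was 165, 169 and 145, 162, 156 and 196, and 181, 150 and 154 RPKM. All groups overlapped for both genes. Chil3 was low next to the GL261 experiments, with 7.09, 6.09 and 5.41 RPKM with vehicle, 11, 4.04 and 10 with 7aaRGD and 2.92, 6.32 and 0.963 RPKM with 7aaRAE. Between the peptides Chil3 was 1.19 higher with 7aaRGD (log2, 95% interval 0.15 to 2.22, adjusted p = 1, limma), and Il4ra was -0.34 (-0.66 to -0.01, adjusted p = 1), which are the 2 members with an unadjusted p under 0.05. The groups overlapped in both.

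Mrc1 was 31.4, 32.3 and 34.9 RPKM with vehicle, 16.4, 53.3 and 20.5 with 7aaRGD and 16.6, 31.4 and 31.9 RPKM with 7aaRAE, so the vehicle samples lay inside the 7aaRGD range. Mgl2 (2.82 to 4.29 RPKM with vehicle) and Clec10a (2.68 to 2.92 RPKM) were below all vehicle samples in the 7aaRAE samples, at 1.37 to 2.3 and 1.9 to 2.12 RPKM. Groups without overlap were thus seen in 2 of 8 members with 7aaRAE, against 16.5% of tested genes, with differences of -0.55 (95% interval -1.28 to 0.19) and -0.35 (-0.91 to 0.2) on the log2 scale. Msr1 was 21.9 to 65.6 RPKM and Tgm2 23.5 to 79.8 RPKM over the 9 samples, with overlap between all groups. For 7aaRGD against vehicle the 95% interval was -0.75 to 1.32 for Chil3 and -1.2 to 0.58 for Mrc1. Monocyte markers summed to 46.7 to 52.7 RPKM with vehicle, 39.6 to 84.4 with 7aaRGD and 17.9 to 28.3 RPKM with 7aaRAE, and 5 of 5 tested monocyte genes were below vehicle with 7aaRAE, with a median difference of -0.92 on the log2 scale, though none was called. NK markers summed to 2.37 to 5.79 RPKM with vehicle and 0.0775 to 0.534 RPKM with 7aaRAE, with Klrb1c and Eomes at or near 0 there. Microglia markers summed to 7215 to 12244 RPKM over all samples. The part of these shifts in the Mgl2 and Clec10a values was not tested.

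**Figure D5:**
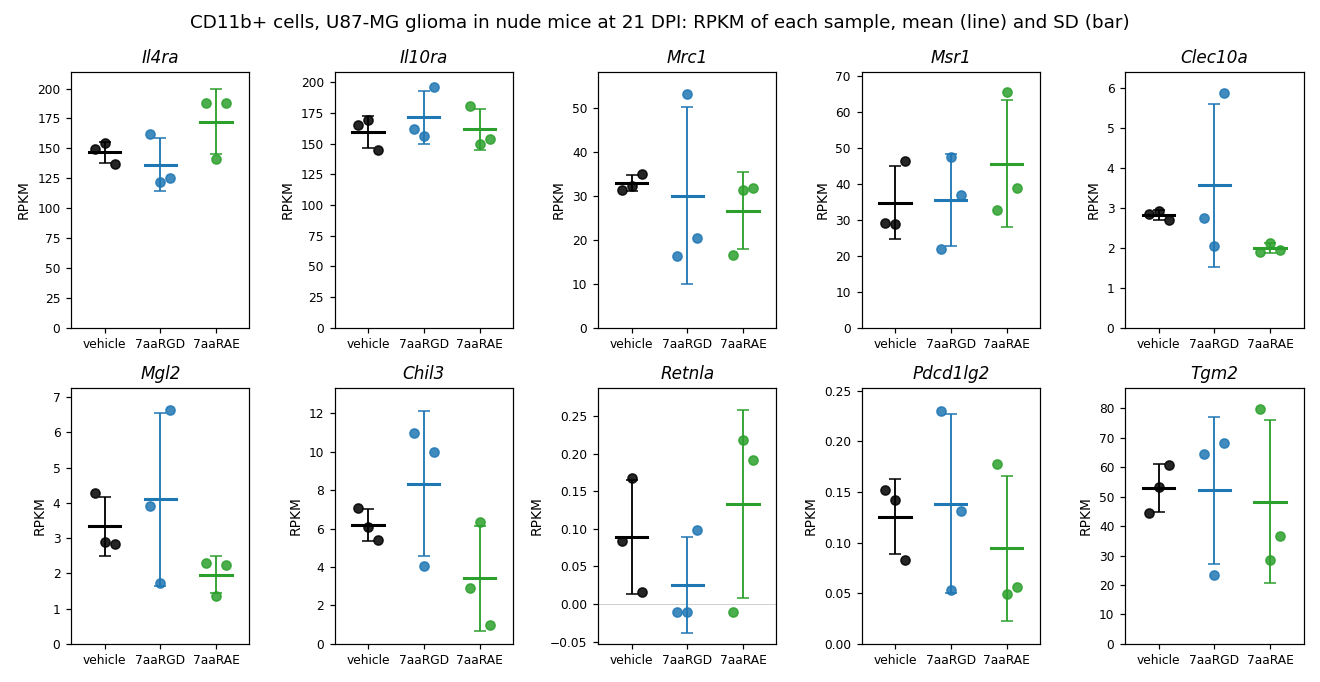
Level of each of the 10 genes in RPKM in every vehicle, 7aaRGD and 7aaRAE sample of the U87-MG experiment, 1 panel per gene and 1 point per sample, with a line at the group mean and a bar for the SD. Il4ra (122 to 188 RPKM) and Il10ra (145 to 196 RPKM) are the highest, Retnla and Pdcd1lg2 reach at most 0.218 and 0.23 RPKM, and the groups overlap in most panels.

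Side by side, the vehicle groups ordered the members differently. The tables were normalized separately and the experiments differ in tumor line, day and animals per sample, and in strain as far as the labels tell, so these levels were not tested against each other. Pdcd1lg2 averaged 54.6 ± 39.6 RPKM (SD, n = 3) in GL261 at 21 DPI, 5.13 ± 1.9 (n = 4) at 28 DPI and at most 0.152 RPKM in U87-MG vehicle samples. Tgm2 averaged 609 ± 139, 111 ± 24.8 and 52.9 ± 8.24 RPKM, and Clec10a 14 ± 4.56, 2.95 ± 1.14 and 2.82 ± 0.127 RPKM. Chil3 had the same order of experiments, with 613 ± 387, 181 ± 60.9 and 6.19 ± 0.844 RPKM, as did Mgl2 with 26.3 ± 16.7, 3.96 ± 1.52 and 3.34 ± 0.83 RPKM. Msr1 averaged 50 ± 13.5, 59.8 ± 9.94 and 34.7 ± 10.1 RPKM, and Il4ra 121 ± 4.43, 125 ± 6.15 and 147 ± 8.78 RPKM, each within a 2-fold range. Mrc1 was highest at 28 DPI, with 59.3 ± 43.9, 90.9 ± 18.4 and 32.9 ± 1.84 RPKM.

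Genes whose levels followed a member most closely were found by the mean Pearson r of log2(RPKM + 1) over the 12, 14 and 9 samples of the 3 tables. These are descriptions over samples that share groups and the sort, and the 12 samples include naïve ones without a tumor. An r over all 12 samples can differ from that in glioma alone. Between members, Chil3 and Msr1 had an r of 0.88 over 12 and -0.67 over the 9 tumor-bearing samples. For Chil3 and Pdcd1lg2 it was 0.99 and 0.95. The genes named below were not ranked without naïve samples. Chil3 ran with Ear2 (0.75), Mmp8 (0.71) and Ccl24 (0.71), Mrc1 with Enpp1 (0.82), Cpped1 (0.79) and Idh1 (0.78), and Mgl2 with Dok2 (0.76), Batf3 (0.75) and Ccl24 (0.75). Clec10a ran with Glipr2 (0.93), S100a11 (0.93) and Mefv (0.92), and Msr1 with Eif1a (0.93), Nsf (0.92) and Trak2 (0.91). Tgm2 had the interferon-induced genes Helz2 (0.94), Ifi209 (0.93) and Nmi (0.92) beside it. The closest to Il4ra were Anapc5 (0.86), Kif2c (0.85) and Myd88 (0.84), and to Il10ra Sipa1l1 (0.78), Akna (0.76) and Dapp1 (0.75). Retnla and Pdcd1lg2 did not average 1 RPKM in all tables and were left out.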

How the data were processed

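CD11b+ cells of 35 samples in 11 groups and 3 tables were analysed. Per the methods of the study, the authors used Trimmomatic, STAR (mm10) and Picard before they counted reverse-stranded reads of mapping quality 10 or more with HTSeq (version 0.11.1 per the submitters' processing notes). The deposited values are RPKM to which the authors added 2, in a step not described, and 3.13% to 8.78% of values in a sample lie under the constant. Replicate differences span 7 of 8, 9 of 10 and 6 of 6 possible dimensions in the GL261 21 DPI, 28 DPI and U87-MG tables. In U87-MG, Il13 was -0.00171 RPKM in columns 1 and 2 and 0.00242 RPKM in column 3 of every group. The alteration there was thus shared between groups by column order, and U87-MG replicates may not be independent. Its effect on the U87-MG comparisons was not tested.

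The constant was subtracted and log2(RPKM + 1), with values below 0 set to 0, was fitted in limma 3.58.1 (R 4.3.3; lmFit, eBayes with trend) over protein-coding genes with a mean of 1 RPKM, all tumor-bearing groups of a table together and naïve with vehicle alone. Unit and depth do not allow count tests, and NOISeq, the study's test, was not run. Samples with the same replicate number showed no pairing (correlations of deviations over 0.1 in 1 of 9 and 3 of 19 pairs). A component of the replicate differences is missing from both of those tables, so this check cannot decide whether samples were paired. Per the methods, samples are single animals (28 DPI) or pools of 2 (21 DPI). Figures were drawn with matplotlib 3.10.9, and the fits were tested on simulated data. Those data had independent normal noise without a missing component or altered values, so they do not test the fits under these features.

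The 10 members and the gene lists were chosen with earlier results of these data known. Named genes are the members, the 3 genes most like each, the 4 list genes with the largest called change, partner chains and ligands, Arg1 and Chil4. Alternatives were another pseudocount (0.1), log2 of the values as deposited, no level filter, median-of-ratios scaling, fewer groups, the replicate block, 1 residual degree of freedom less (chosen after seeing the data) and each sample left out.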

Additional observations from a re-analysis of the deposited data

How the results depend on the processing

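No difference called in the reported fit changed direction under any alternative run. Among the members called, the count with 7aaRGD against vehicle in GL261 at 21 DPI was 0 to 3 when single samples were left out, and with 7aaRAE 0 to 1, the higher value in both without vehicle sample 3. With anti-PD-1 against vehicle it was 1 to 2 when single samples were left out, and 1 without the level filter, with only the groups compared, with the replicate block and with 1 residual degree of freedom less. Pdcd1lg2 is the call that was lost, with 1.76 and an adjusted p of 0.0792 (limma) with the replicate block. With the combination against vehicle it was 4 to 7 when single samples were left out, and 6 with the replicate block, where Il4ra was lost (-0.24, adjusted p = 0.0957, limma). The Il4ra call was also lost without the level filter, with median-of-ratios scaling and with 1 residual degree of freedom less. The block did not change the number of members called in the other GL261 and 28 DPI comparisons. It was not run for U87-MG, whose columns carry no replicate numbers. Over all values of the members, 723 stayed on their side of the threshold under other settings, 9 lost a call and 6 that were not called in the reported fit changed sign, and with single samples left out 733 stayed, 18 lost a call, 9 gained one and 47 that were not called in the reported fit changed sign. Among these, Retnla against naïve was 0.18 without vehicle sample 3 but called at -1.01 without vehicle sample 1 (adjusted p = 0.0208, limma). The depth of the samples is unknown, so values near 0, as in Retnla, carry no stated precision.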

Other observations

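At 28 DPI the 12 genes of classical activation summed to 547 to 752 RPKM with vehicle, 489 to 661 with 7aaRGD, 860 to 1363 with anti-PD-1 and 1342 to 1855 RPKM with the combination. With the combination 8 of 10 tested genes of that list were called higher and none lower by limma, against 17.5% and 25.8% of all tested genes. The largest differences were in Nos2, the inducible nitric oxide synthase (3.6 on the log2 scale, adjusted p = 1.35e-06, limma), Ptgs2 (2.6, adjusted p = 0.000133), Ccl5 (1.97, adjusted p = 0.000511) and Tnf (1.51, adjusted p = 0.00232). With anti-PD-1 alone 5 of 10 were called higher, against 10.8% of all tested genes. Between the combination and anti-PD-1 0 were called, against 0.0411% in either direction. In glioma against naïve brain at 21 DPI 9 of 11 were called higher and 1 lower, against 34.6% and 48.2% of all tested genes. In either direction 82.9% of all tested genes were called in that comparison.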
